A study of Homo sapiens with 9 samples.

Results

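Cholesterol synthesis, uptake and lysosomal export were examined through 31 sterol genes in HT1080 cells, an established human fibrosarcoma line. The genes were chosen by their place in the pathway, with earlier results of these data known. Each was read from the probe sets that the array's annotation assigns to that gene alone, the brightest first. Of the 31 genes, 29 had such a probe set (69 probe sets in all, of 41091 that name 1 gene), and they are 29 of 19775 genes measured. FDFT1 and CYP51A1 had none and are not reported.

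All 9 arrays came from cells seeded on top of a polymerised layer of bovine dermal collagen (1.7 mg/ml) in medium with 10% serum and left for 24 h before treatment. The 3 untreated arrays carry a vehicle label, and neither the vehicle nor their harvest time is given in the sources used here. A further 3 arrays came from cells kept for 4 h, and 3 from cells kept for 24 h, with protease inhibitors: GM6001 (100 µM), pepstatin A (50 µM), E64 (250 µM), aprotinin (2 µM) and leupeptin (2 µM). The mix acts on metallo-, aspartic, cysteine and serine proteases, although some labels call it a kinase inhibitor cocktail. The comparisons asked where each transcript stood at either time against untreated cells, and whether the later level differed from the earlier one. The replicates are described as biological, and nothing else is said of how they were grown, so the tests measure the spread between these samples.

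Cells make cholesterol from acetyl-CoA through mevalonate, farnesyl diphosphate, squalene and a series of ring modifications, and they also take it up in lipoproteins. Lipoprotein cholesterol esters are cut by an acid lipase in the lysosome, and the free sterol leaves through NPC2 and NPC1. When membrane sterol is low, SCAP escorts the SREBP transcription factors to the Golgi for cleavage, and the genes of synthesis and uptake are induced. INSIG proteins hold SCAP back when sterol is plentiful, and oxysterols activate LXR receptors, whose targets include the exporters ABCA1 and ABCG1 and the ubiquitin ligase MYLIP.

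Values below are intensities on a linear scale, each array scaled to a trimmed mean of 100, given as mean ± SD (n = 3) or by array in the order of replicates 1, 2 and 3. Changes are differences in log2(intensity + 16) with their standard error (SE). They come from a limma model over all 9 arrays, and a gene passed the threshold at a Benjamini-Hochberg adjusted p under 0.05 over all 19775 genes. All 8 mesenchymal genes checked, among them VIM and MMP14, had a mean above 64. Of 24 markers of 5 other cell classes, 21 had a mean below 16 and none exceeded 55 on any array. Some array measures moved with the treatment. The poly-A spike RNAs averaged 9.31 ± 0.07 on the log2 scale in untreated samples, 10.20 ± 0.22 at 4 h and 10.64 ± 0.02 at 24 h (exact two-sided permutation p = 0.1 for each pair of groups, the minimum for 3 against 3). The ACTB signal at the 5' end over that at the 3' end, a measure of RNA integrity, was 0.893 ± 0.034, 0.723 ± 0.132 and 0.697 ± 0.038, whereas that of GAPDH moved the other way, at 1.049 ± 0.001, 1.074 ± 0.029 and 1.079 ± 0.018. Replicate 2 of the 4 h group, at 0.871 for the ACTB measure, was the treated array nearest to the untreated ones on the first principal component. The part of these differences in the results below was not tested.

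After 24 h the sterol genes lay mostly above their untreated level. No vehicle arrays are labelled with a time, so time in culture and the inhibitors cannot be told apart in any of the comparisons. The genes were chosen with earlier results of these data known, so the counts below are a description and no independent test. At 24 h, 3 of the 29 genes rose past the threshold (0.217% of all genes did) and none fell (0.248% of all genes did). The 3 were INSIG1, which encodes the sterol-dependent brake on SREBP, and the synthesis enzymes MSMO1 and SQLE. The change was above 0 in 22 of the 29, against 51.6% of all genes, and the median change was 0.34 on the log2 scale, against 0.01 over all genes. The 24 h arrays lay entirely above the untreated arrays in 15 of the 29 (12.8% of all genes) and entirely below in 3, namely PMVK, LSS and NPC2 (12.2%). The samples are bulk RNA, in which fewer cells of a type and less RNA per cell cannot be told apart. On all arrays 16 of the 29 had an unadjusted p under 0.05, as did 15.8% of all genes. Leaving out any 1 of the 6 untreated and 24 h arrays left 0 of the 29 past the threshold. The count was also 0 with a pseudocount of 1 or with the replicate number as a block, whereas it was 12 with a pseudocount of 64, 10 with a filter on dim genes and 14 with a trended, robust variance.

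**Figure D1:**
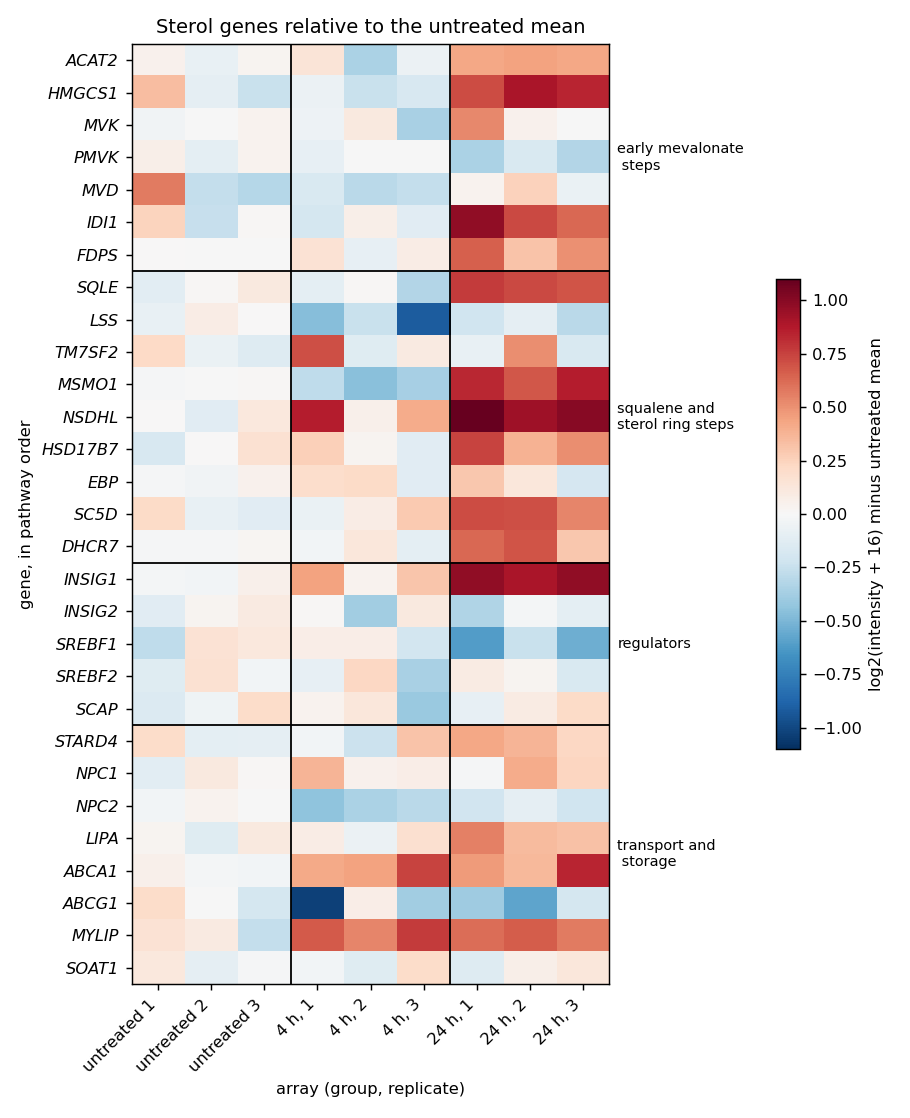
Each of the 29 measured sterol genes on each array, as log2(intensity + 16) minus the untreated mean (colour), with genes in pathway order down the side and arrays along the bottom. The 16 synthesis enzymes average 0.49, 0.45 and 0.33 on the 24 h arrays and 0.05, -0.07 and -0.13 on the 4 h arrays.

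Among the early enzymes of the mevalonate pathway, none passed the threshold. In 4 of 7 the 24 h arrays all lay above the untreated ones, as in 12.8% of all genes. HMGCS1, which makes HMG-CoA, measured 199.8, 144 and 128 on the untreated arrays, 147, 128 and 135 at 4 h, and 265, 302 and 289 at 24 h. Its 24 h arrays were above every other array, at 0.82 ± 0.16 (SE) over untreated, short of the threshold (adjusted p = 0.0561). IDI1, which isomerises isopentenyl diphosphate, measured 782, 549 and 663 on the untreated arrays, 573, 688 and 601 at 4 h, and 1306, 1102 and 1031 at 24 h. The 24 h change was 0.78 ± 0.16 (adjusted p = 0.067). Untreated and 4 h arrays overlapped for both genes, and 24 h arrays overlapped with neither.

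ACAT2, the thiolase that joins acetyl units, measured 789 ± 41.1 untreated, 747 ± 129 at 4 h and 1069.5 ± 4.84 at 24 h. FDPS, the farnesyl diphosphate synthase, measured 1575 ± 5.27 untreated, 1636 ± 141 at 4 h and 2235 ± 266 at 24 h. Neither passed (adjusted p = 0.168 and 0.108 at 24 h), and in both the 24 h arrays lay above all untreated arrays. MVK, mevalonate kinase, measured 165 ± 5.11 untreated, 154 ± 27.3 at 4 h and 193 ± 44.3 at 24 h. MVD, the decarboxylase that yields isopentenyl diphosphate, measured 47.6 ± 23.5 untreated, 35.7 ± 2.43 at 4 h and 48.6 ± 7.41 at 24 h. Both overlapped between untreated and 24 h arrays. PMVK, phosphomevalonate kinase, was lower on every 24 h array, at 204 ± 15.1 against 251 ± 16.6 untreated (change -0.28 ± 0.11, adjusted p = 0.263). None of the 7 early genes passed in any of the 3 comparisons by limma, with 0, 5 and 4 at an unadjusted p under 0.05 for 4 h, 24 h and 24 h against 4 h. Over all genes the shares at that limit were 12.4%, 15.8% and 11.3%.

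Among the enzymes that build and trim the sterol ring, MSMO1 and SQLE rose at 24 h. MSMO1, a methyl oxidase that acts in the removal of ring methyl groups, measured 1453, 1455 and 1480.3 on the untreated arrays, 1199.6, 1058 and 1134 at 4 h, and 2616, 2362 and 2677 at 24 h. The 3 groups did not overlap: the 4 h arrays were the lowest and the 24 h arrays the highest. The rise over untreated was 0.79 ± 0.11 (1.73-fold, adjusted p = 0.0299) and that over 4 h was 1.16 ± 0.11 (2.24-fold, adjusted p = 0.00652). The 4 h level was -0.37 ± 0.11 relative to untreated (adjusted p = 0.221), which passed the threshold in 2 of 19 alternative settings, the pseudocount of 64 and the trended variance.

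SQLE, squalene epoxidase, which adds the oxygen needed to close the ring, measured 400.4, 438 and 468 on the untreated arrays, 401, 439 and 345 at 4 h, and 749.6, 729 and 711 at 24 h. The untreated and 4 h arrays overlapped and the 24 h arrays stood above both. It rose by 0.73 ± 0.12 over untreated (1.66-fold, adjusted p = 0.0485) and by 0.86 ± 0.12 over 4 h (1.82-fold, adjusted p = 0.0374). The rise of SQLE over 4 h was past the threshold in none of the 9 runs that omit an array (adjusted p from 0.0647 to 0.158), and that of MSMO1 in all 9 (adjusted p up to 0.0417).

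NSDHL, the dehydrogenase that acts after MSMO1, measured 251, 228 and 273 on the untreated arrays, 468, 259.7 and 336 at 4 h, and 571, 492 and 516 at 24 h. The 4 h arrays were spread between the other groups, with replicate 2 within the untreated range. By this probe set, the brightest over all arrays, the 24 h change of 1.03 ± 0.19 was the largest of the 29 measured genes. It missed the threshold (adjusted p = 0.0543). The gene's other probe set was brighter in untreated cells (306 against 251) and gave 0.51, so that rank depends on the choice of probe set. DHCR7, which makes cholesterol in the last step, measured 348, 349 and 356 on the untreated arrays, 343, 385 and 325 at 4 h, and 554, 578 and 434 at 24 h. Its 24 h arrays did not overlap with the others (change 0.54 ± 0.13, adjusted p = 0.102). SC5D, a sterol desaturase, and HSD17B7, a sterol keto-reductase, had 24 h changes of 0.66 ± 0.14 and 0.55 ± 0.15 (adjusted p = 0.0752 and 0.131), again with no overlap with untreated arrays.

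LSS, the cyclase that forms lanosterol, measured 568, 639 and 602 on the untreated arrays, 429.9, 505 and 311 at 4 h, and 516, 561 and 488 at 24 h. Every treated array was below every untreated array, with changes of -0.55 ± 0.17 at 4 h (adjusted p = 0.235) and -0.20 ± 0.17 at 24 h (adjusted p = 0.618). EBP, the sterol isomerase, measured 674 ± 20.3 untreated, 724 ± 93.1 at 4 h and 719 ± 122 at 24 h. TM7SF2, a sterol reductase, lay between 1.6 and 16.4 over all arrays, with a mean below the pseudocount. Of the 9 measured genes of this stage, 2 rose at 24 h over untreated (0.217% of all genes) and 2 over 4 h (0.0253%). The other 7 did not pass in each.

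**Figure D2:**
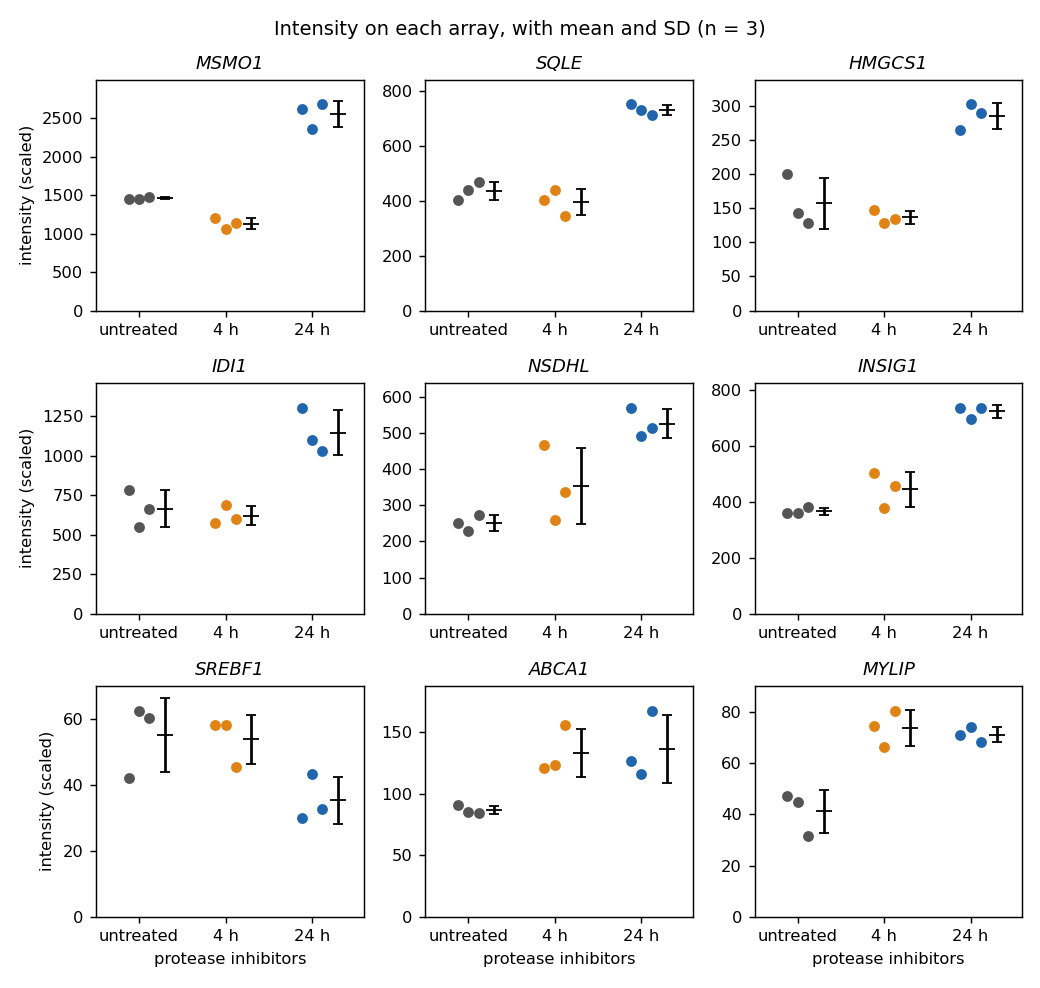
Intensity (linear scale, from 0) of 9 sterol genes on each array, with points for the 3 replicates of a group and the mean ± SD beside them. MSMO1, SQLE, HMGCS1, IDI1, NSDHL and INSIG1 show 24 h arrays above all others, whereas the 4 h and 24 h arrays of ABCA1 and MYLIP overlap, above the untreated ones.

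Among the regulators, INSIG1 rose. INSIG1 measured 360, 359 and 381 on the untreated arrays, 503, 378 and 457 at 4 h, and 738, 698 and 737 at 24 h. Replicates 1 and 3 at 4 h lay above every untreated array and replicate 2 within their range, and the 24 h arrays lay above all others. It rose by 0.95 ± 0.13 over untreated (1.94-fold, adjusted p = 0.0266), and the change of 0.69 ± 0.13 from 4 h to 24 h did not pass (adjusted p = 0.0803). INSIG2, its close relative, measured 98.7, 112 and 118 on the untreated arrays, 110.2, 79.9 and 119 at 4 h, and 83.5, 107 and 100 at 24 h, with overlap throughout. The 95% interval of its 24 h change ran from -0.50 to 0.20 on the log2 scale, and that of INSIG1 from 0.67 to 1.24. The difference between the paralogs was not tested.

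SREBF1, which encodes the SREBP forms linked mainly to fatty acid synthesis, measured 42.2, 62.6 and 60.5 on the untreated arrays, 58.3, 58.2 and 45.4 at 4 h, and 30, 43.5 and 32.6 at 24 h. The 24 h arrays were below every 4 h array and overlapped the untreated ones through untreated replicate 1 (change from untreated -0.47 ± 0.16, adjusted p = 0.205). SREBF2, which encodes the SREBP linked mainly to sterol synthesis, measured 90.4, 115 and 98.1 on the untreated arrays, 93.9, 120.5 and 75.4 at 4 h, and 108, 104 and 87.8 at 24 h. The groups overlapped, and the interval of the 24 h change ran from -0.39 to 0.36. SCAP measured 228, 246 and 295 on the untreated arrays, 262, 279 and 188 at 4 h, and 239, 273 and 297 at 24 h, again with overlap. In the regulators 1 of 5 genes rose at 24 h (0.217% of all genes did) and the other 4 did not pass. Cleavage and protein levels were not measured.

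**Figure D3:**
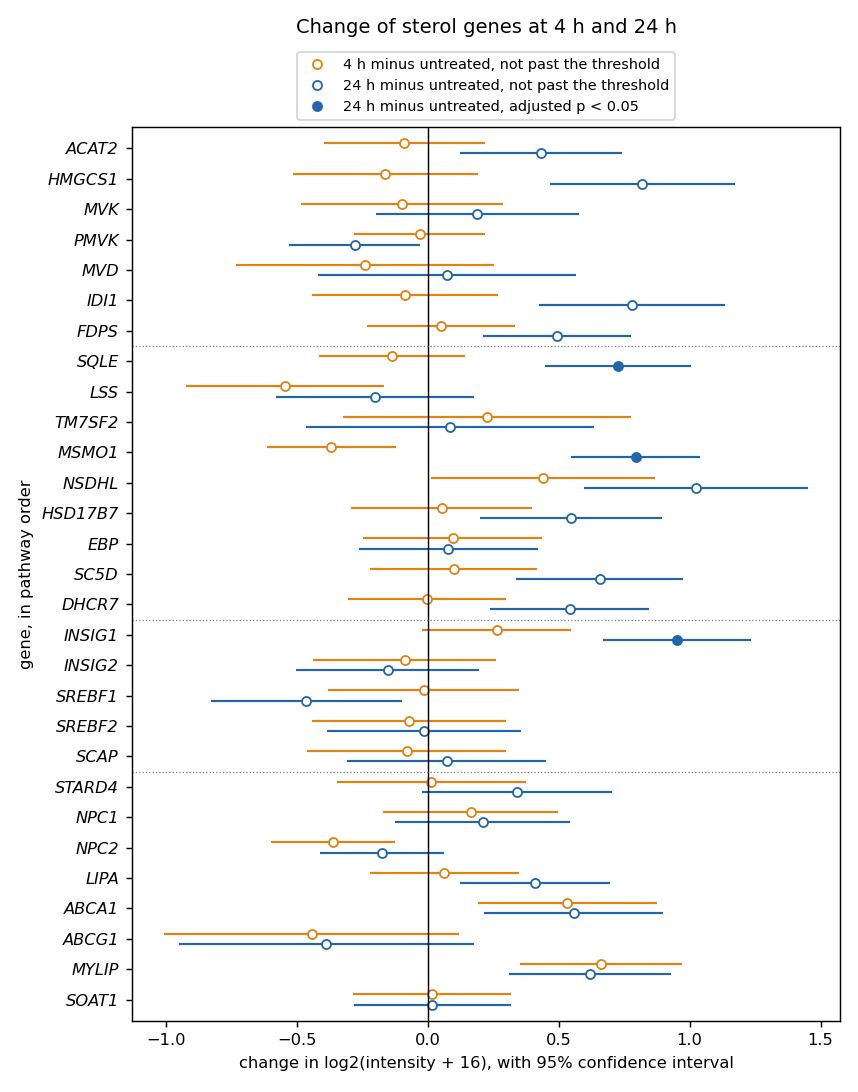
Change of each sterol gene at 4 h (orange) and 24 h (blue) against the same untreated arrays, in log2(intensity + 16) with 95% confidence intervals and genes in pathway order. Filled points passed the threshold: MSMO1, SQLE and INSIG1, all at 24 h, and no gene at 4 h.

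INSIG1 and 10 of the 16 measured enzymes had 24 h arrays that all lay above the untreated ones (12.8% of all genes). PMVK and LSS lay below (12.2% of all genes), and the other 4 overlapped. The RefSeq promoter windows of the genes (GRCh38.p14, 250 bases before to 50 after a start) were therefore read for letters bound by factors of the pathway. Windows were found for 27 of the 31 genes (36 windows). SQLE, which passed the threshold at 24 h, and ACAT2 were among those without one. The SREBP-type letters TCACNCCAC, the NF-Y letters CCAAT and the E-box TCACGTGA known from lysosomal genes were searched on both strands. So was the LXR-type repeat, GGTCA followed by 5 bases of any kind and GGTCA again. The promoters of MSMO1, INSIG1 and NSDHL are shown with that of SREBF2, the only one of the 36 windows with the SREBP-type letters. MSMO1, INSIG1 and NSDHL had, by their brightest probe sets, the largest changes from untreated at 24 h among genes with 1 window. For NSDHL that probe set is the brightest only with the treated arrays included. Only the 250 bases before the start are printed, 5' to 3' on the gene's strand, with matches in capitals. They lie at chr4:165327419-165327668 (+) for MSMO1, chr7:155297628-155297877 (+) for INSIG1, chrX:152830813-152831062 (+) for NSDHL and chr22:41832855-41833104 (+) for SREBF2.
MSMO1: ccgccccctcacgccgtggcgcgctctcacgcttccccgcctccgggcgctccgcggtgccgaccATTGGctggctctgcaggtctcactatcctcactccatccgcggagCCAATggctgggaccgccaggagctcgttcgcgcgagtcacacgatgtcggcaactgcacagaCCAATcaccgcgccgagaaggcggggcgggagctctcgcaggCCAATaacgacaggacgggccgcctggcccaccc
INSIG1: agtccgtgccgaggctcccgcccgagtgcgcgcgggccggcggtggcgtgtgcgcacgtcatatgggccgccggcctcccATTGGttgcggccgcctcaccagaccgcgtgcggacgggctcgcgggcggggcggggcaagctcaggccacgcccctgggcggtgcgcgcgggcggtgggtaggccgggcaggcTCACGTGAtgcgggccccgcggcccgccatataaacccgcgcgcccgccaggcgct
NSDHL: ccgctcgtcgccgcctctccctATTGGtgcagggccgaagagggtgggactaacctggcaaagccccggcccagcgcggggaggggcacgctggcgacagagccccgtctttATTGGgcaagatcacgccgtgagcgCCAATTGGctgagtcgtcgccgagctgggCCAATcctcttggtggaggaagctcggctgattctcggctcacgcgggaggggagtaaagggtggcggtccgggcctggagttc
SREBF2: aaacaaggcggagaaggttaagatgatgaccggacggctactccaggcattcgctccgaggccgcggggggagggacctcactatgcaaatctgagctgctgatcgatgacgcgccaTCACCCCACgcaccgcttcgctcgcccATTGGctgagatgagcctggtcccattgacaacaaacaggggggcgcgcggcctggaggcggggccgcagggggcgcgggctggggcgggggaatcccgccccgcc
MSMO1 held CCAAT letters (either strand) at 185, 139, 76 and 34 bases before its start, and NSDHL at 228, 138, 113, 110 and 84, where those at 113 and 110 overlap. In INSIG1 CCAAT letters began 170 bases and the E-box 56 bases before the start. In SREBF2 the SREBP-type letters began 133 bases and CCAAT letters 106 bases before it.

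CCAAT letters stood in 23 of the 36 windows of sterol genes (63.9%), against 34.6% of all 35116 windows of that length. By gene, 12 of the 13 that had a window and 24 h arrays all above untreated ones held them, ABCA1 being the exception, and 8 of the 13 other measured genes with a window did. Over all 27305 genes with a window the share was 39.7%, and over the 27 sterol genes 74.1%. The SREBP-type letters stood in 1.13% of all windows, the E-box in 0.98% and the LXR-type repeat in 0.0854%, the last in none of the 36. Only exact matches were counted, so sites with other letters or outside the windows are not seen. These letters are a description of the windows, and no binding was measured.

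Among the genes of transport and storage, ABCA1 and MYLIP had, by their brightest probe sets, every treated array above every untreated array at both times. Neither passed the threshold, and ABCG1 did not separate in this way. Such separation held for 2 of the 29 genes at 4 h (9.37% of all genes) and 15 at 24 h (12.8%). At 4 h the second probe set of ABCA1 gave 0.01, and some dimmer ones of MYLIP were between -0.22 and 0.04. MYLIP, a ubiquitin ligase that degrades lipoprotein receptors, measured 47.3, 44.7 and 31.4 on the untreated arrays, 74.6, 66.4 and 80.5 at 4 h, and 71, 74.2 and 68.2 at 24 h. Its change was 0.66 ± 0.14 at 4 h (adjusted p = 0.106) and 0.62 ± 0.14 at 24 h (adjusted p = 0.0804). ABCA1, which exports cholesterol to lipid-poor apolipoproteins, measured 90.5, 84.8 and 84.3 on the untreated arrays, 121, 123 and 155 at 4 h, and 126, 116 and 167 at 24 h. Its changes were 0.53 ± 0.15 and 0.56 ± 0.15 (adjusted p = 0.21 and 0.124). The 4 h and 24 h arrays overlapped in both, and the difference from 4 h to 24 h had an interval of -0.35 to 0.27 for MYLIP and -0.32 to 0.37 for ABCA1. ABCG1, the exporter to mature lipoproteins, measured 24.3, 18.9 and 14.6 on the untreated arrays, 1.2, 20.9 and 10.9 at 4 h, and 10.7, 7.4 and 14.7 at 24 h, with a mean below the pseudocount.

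In the lysosomal export genes the 3 members differed in direction, and none passed. LIPA, the lysosomal acid lipase, measured 454, 402 and 478 on the untreated arrays, 471, 422 and 502 at 4 h, and 659, 570.5 and 558 at 24 h. Every 24 h array was above all others (0.41 ± 0.13 over untreated, adjusted p = 0.159). NPC2, which hands cholesterol to NPC1, measured 1455, 1529 and 1489 on the untreated arrays, 1093, 1170.5 and 1209 at 4 h, and 1288, 1390.3 and 1279 at 24 h. All treated arrays were below the untreated ones, with changes of -0.36 ± 0.11 at 4 h (adjusted p = 0.218) and -0.18 ± 0.11 at 24 h (adjusted p = 0.467). The 4 h difference passed with a pseudocount of 64 and with a trended variance. NPC1, the lysosomal membrane transporter, measured 1229, 1431 and 1340.4 on the untreated arrays, 1728, 1372 and 1403 at 4 h, and 1319, 1773 and 1568 at 24 h, with overlap between all groups.

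STARD4, a soluble sterol carrier, measured 197, 157 and 157 on the untreated arrays, 166, 141 and 214 at 4 h, and 233, 224 and 201 at 24 h. Its 24 h arrays were above the untreated ones by 0.34 ± 0.16 (adjusted p = 0.344). SOAT1, which esterifies cholesterol for storage, measured 395, 338 and 359 on the untreated arrays, 357, 331 and 421 at 4 h, and 329, 382 and 397 at 24 h. The groups of this brightest probe set of SOAT1 overlapped throughout (24 h interval -0.28 to 0.32). Its second probe set measured 312.4, 242.5 and 308.3 untreated and 384.6, 335.1 and 418.3 at 24 h, without overlap. That change of 0.38 did not pass over all probe sets (limma, adjusted p = 0.371). None of the 8 transport and storage genes passed in any comparison by limma, with 3, 3 and 1 at an unadjusted p under 0.05 (12.4%, 15.8% and 11.3% of all genes), so the last is near the share over all genes.

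At 4 h, none of the 29 genes passed in either direction by limma (0.233% of all genes were higher and 0.0152% lower), and 6 of the 29 had an unadjusted p under 0.05, as did 12.4% of all genes. The median change was -0.02, and 13 genes were above 0 and 16 below. Arrays at 4 h lay entirely above untreated ones in 2 genes, ABCA1 and MYLIP (9.37% of all genes), and entirely below in 3, LSS, MSMO1 and NPC2 (8.14%). From 4 h to 24 h, 2 of the 29 rose, MSMO1 and SQLE (0.0253% of all genes rose), and none fell (0.116% of all genes did). The 24 h arrays lay entirely above the 4 h arrays in 14 genes (7.35% of all genes), 11 of them among the 16 measured synthesis enzymes, and entirely below in 2, PMVK and SREBF1 (7.85%). This comparison shares its arrays with the others, so it is no independent evidence for the 24 h levels. With the 4 h and 24 h arrays alone in the model, 0 of the 29 passed.

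Several genes had more than 1 probe set. The 43 probe sets of sterol genes with a mean above 64 over all arrays came from 24 genes, so some read the same gene. Of the 43, 35 were higher at 24 h than untreated, 38 at 24 h than at 4 h and 21 at 4 h than untreated. By gene, changes above 0 made up 51.6%, 49.2% and 52.2% of all genes in these comparisons. The share over all probe sets above 64 was not taken. For SQLE the 24 h changes were 0.73, 1.04, 0.46 and 0.20 in order of brightness, and at 4 h the first pair had opposite signs (-0.14 and 0.45). INSIG1's other probe sets gave 0.67 and 0.39 at 24 h, beside 0.95 for the brightest, and NSDHL's other gave 0.51, beside 1.03. Both genes thus had smaller changes in their other probe sets, and NSDHL's other was the brighter one in untreated cells (306 against 251). For IDI1 a dimmer probe set had the opposite sign (-0.27). That probe set and the brighter ones all carry the suffix by which the array marks probes that may match other transcripts. IDI1's only probe set without the suffix was its dimmest and gave 0.27. IDI1 and HSD17B7, which has only a probe set with the suffix, are thus uncertain. EBP ranged from 0.06 to 0.86, and its brightest gave 0.08. The second probe set of ABCA1 gave 0.01 at 4 h and 0.21 at 24 h, so the early difference of that gene rests on 1 probe set. Of MYLIP's 5 other probe sets, 2 gave 0.76 and 0.63 at 4 h and the other 3 were between -0.22 and 0.04. The one at 0.76 carries that suffix as well.

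**Figure D4:**
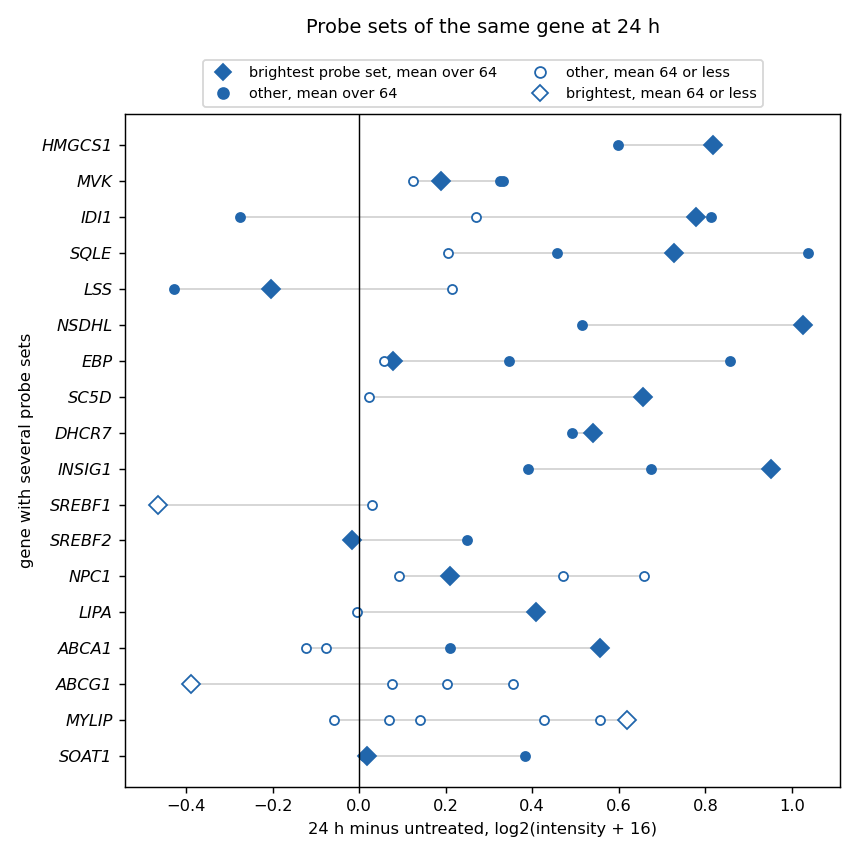
Change at 24 h against untreated in log2(intensity + 16) for every probe set of the 18 sterol genes with several, where diamonds mark the brightest and open symbols a mean of 64 or less. The probe sets of SQLE, INSIG1, HMGCS1, NSDHL and DHCR7 all lie above 0. Those of IDI1, LSS, SREBF1, SREBF2, LIPA, ABCA1, ABCG1 and MYLIP fall on both sides.

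Neighbouring pathways gave few passing genes. Of all genes, 0.217% rose past the threshold at 24 h and 0.248% fell. In the isoprenoid branch, which uses farnesyl diphosphate, COQ2, an enzyme of ubiquinone synthesis, fell at 24 h from 324 ± 21.0 to 207 ± 0.557 (-0.61 ± 0.10, adjusted p = 0.0485). The other 12 of the 13 genes there did not pass (median change 0.12). Among 17 genes of fatty acid synthesis, LPIN1, which makes diacylglycerol from phosphatidic acid, measured 105 ± 9.76 untreated and 228 ± 8.43 at 24 h, a rise past the threshold (adjusted p = 0.0333), and 16 did not pass (median change 0.07). SCD, a fatty acid desaturase, measured 624 ± 19.5 untreated, 462 ± 38.7 at 4 h and 685 ± 56.1 at 24 h. The 24 h level of SCD was 0.55 ± 0.12 above that at 4 h (adjusted p = 0.116).

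None of 7 genes of SREBP processing and sterol-regulated degradation passed at 24 h by limma, with 5 at an unadjusted p under 0.05 and a median change of 0.44. VCP, which extracts ubiquitinated proteins from the endoplasmic reticulum, measured 2031 ± 109 untreated and 2934 ± 171 at 24 h (adjusted p = 0.0722). None of 29 other sterol carrier, receptor and oxysterol genes passed at 24 h by limma (7 at an unadjusted p under 0.05, median change -0.07). CAV1, the caveolar coat protein, measured 3049 ± 66.4 untreated and 2018 ± 156 at 24 h (adjusted p = 0.0528), and SCARB1, a lipoprotein receptor, 142 ± 10.3 and 77.4 ± 7.1 (adjusted p = 0.0721). Of 17 lysosomal genes none passed by limma (8 at an unadjusted p under 0.05, median change -0.05), and GLA, an alpha-galactosidase, measured 645 ± 19.4 untreated and 1158 ± 85.2 at 24 h (adjusted p = 0.0596). At 4 h and from 4 h to 24 h no gene of these 5 lists passed by limma, and the counts at an unadjusted p under 0.05 ranged from 2 to 3 and from 2 to 7. The shares of all genes at that limit were 12.4% at 4 h, 15.8% at 24 h and 11.3% from 4 h to 24 h. Several of these counts, such as 3 of 29 and 2 of 17 at 4 h, lie below them.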

How the data were processed

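Per the file headers the deposited table holds 1 value per probe set and array, 54675 probe sets on 9 arrays. The values the authors deposited are linear intensities, scaled so that each array has a mean of 100 once its top and bottom 2% are trimmed. The submitters' processing notes name R 2.9.2 and RMA with no role, and the values are not RMA's log2 values. Such scaling removes any change in total messenger RNA. The number of arrays limits the precision.

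Values were transformed as log2(intensity + 16), which understates changes of dim genes (the mean of 39.6% of genes was below 16). The platform annotation named 1 gene for 41091 probe sets and several for 1801, and did not list 11721, after 62 controls were left out. Identifiers of 41037 matched RefSeq. The probe set brightest over all 9 arrays, treated ones included, stood for its gene, unfiltered. limma 3.58.1 in R 4.3.3 (lmFit, eBayes) fitted 1 mean per group to all 9 arrays, two-sided, and was tested on simulated data first. The members and lists were chosen with earlier results of these data known. Values on every array are given for members past the threshold, for the 6 with the smallest p in each comparison, and for a fixed set of regulators, entry enzymes and transport genes. In the other lists the passing genes are named, or of those with the smallest p some examples. Pseudocounts, probe set choice, a filter at the 40th percentile, normalization, variance model, replicate block and omitted arrays were varied.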

Additional observations from a re-analysis of the deposited data

Results flagged for a closer look

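The change at 24 h differed from the change at 4 h in 2 sterol genes by limma's test of the difference itself. The untreated arrays cancel in that difference, so it is the comparison of 24 h with 4 h given above and no further test. For MSMO1 the difference was 1.16 on the log2 scale (adjusted p = 0.00652), from 1131 ± 70.7 at 4 h to 2551 ± 167 at 24 h. For SQLE it was 0.86 (adjusted p = 0.0374), from 395 ± 47.1 to 729.8 ± 19.3. In each, all 3 of the 24 h arrays lay above all 4 h arrays. SQLE passed in none of the 9 runs that omit an array (limma, adjusted p from 0.0647 to 0.158), and MSMO1 in all 9. With the compared groups alone in the model, 0 of the 29 genes passed. Outside the gene measurements, the poly-A spike probe sets were 1.33 higher at 24 h than in untreated samples on the log2 scale, and their part in the sterol results was not tested.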

How the results depend on the processing

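The changes of MSMO1, SQLE, INSIG1, HMGCS1, IDI1 and NSDHL at 24 h kept their sign in all 19 alternatives, and no alternative turned a change that had passed. The median change of the 29 genes at 24 h stayed between 0.28 and 0.43. The number of sterol genes past the threshold depended on the setting, and the cause was not tested. At 24 h against untreated it was 3 higher, and 0 with a pseudocount of 1 or the replicate block, 12 with a pseudocount of 64, 10 with the 40th percentile filter and 14 with the trended, robust variance. For 24 h against 4 h it was 2, and 1 with a pseudocount of 1, the mean over probe sets, every probe set tested or median centring, 0 with the replicate block or the compared groups only, 6 with a pseudocount of 64, 5 with the filter and 9 with the trended variance. At 4 h it was 0, and 1 higher with a pseudocount of 64 or the filter, and 2 lower with a pseudocount of 64 or the trended variance. Without single arrays the count ranged from 0 to 4 at 24 h, from 1 to 2 for 24 h against 4 h and stayed at 0 at 4 h. Same-numbered arrays deviated together with correlations from -0.11 to 0.09, so the numbers are not taken to pair the samples.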
